A study of Saccharomyces cerevisiae with 19 samples.

Results

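The 54 genes described here encode enzymes that make amino acids in the yeast Saccharomyces cerevisiae, together with GCN4, the transcription factor that governs many of them. They were chosen by name and pathway from the 6409 named features of the deposited count tables, with earlier results of these data known. All 54 were found and passed the filter on low counts, which kept 6147 features. They cover arginine (6 genes), histidine (6), leucine (4), isoleucine and valine (7), lysine (7), tryptophan (5), the shared aromatic pathway with phenylalanine and tyrosine (8), homoserine and threonine (5), proline (3), asparagine (2) and GCN4.

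Yeast makes most amino acids itself and adjusts the enzymes by general and by pathway-specific control. When uncharged transfer RNA accumulates, the kinase Gcn2 phosphorylates the initiation factor eIF2, and translation of the GCN4 messenger RNA rises through short upstream reading frames in its leader, so that Gcn4 protein is governed largely at translation. Gcn4 binds the sequence TGACTCA in front of many biosynthetic genes. Single pathways have regulators of their own, such as Leu3, which binds a CCGG pair separated by 2 bases and activates branched-chain genes in the presence of the leucine precursor alpha-isopropylmalate.

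RNA was sequenced from 5 strains with 3 biological replicates each, at a time labelled 36 h. The labels give WT, a deletion of Pcf11 (ΔPcf11), a Pcf11 with 4 conserved residues replaced (Pcf11-AARR), and a pair of strains that overexpress Pcf11 (Pcf11-OE1 and Pcf11-OE2). Pcf11 is a subunit of the machinery that cuts new transcripts at their 3' ends and releases the polymerase. The design text names a strong promoter and terminator (TEF1p, GRS1t) and a weak pair (CDC60p, DITIt) for the overexpression without assigning them, and the labels name both S288C and CEN.PK2-1C, laboratory strains, for every library. PCF11 itself stood at 15.2 ± 2.13 CPM (counts scaled to a common library size; SD, n = 3) in WT and 13.0 ± 0.893 where the label is ΔPcf11. Its level was 21.2 ± 1.22 CPM in Pcf11-AARR, and Pcf11-OE1 and Pcf11-OE2 had 589.8 ± 33 and 76.2 ± 11.7 CPM. The libraries labelled ΔPcf11 did not pass the test for a lower PCF11 level than WT (-0.23 ± 0.13 on the log2 scale, SE; edgeR adjusted p = 0.129), and the reads do not show the deletion the label names, so they are called ΔPcf11-labelled below.

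Total counts ranged from 25930079 to 45796931 per library. The percent of reads mapped was 83.62, 95.27 and 86.08 in WT, 61.85, 56.43 and 57.01 in the ΔPcf11-labelled libraries and 49.87, 91.6 and 67.78 in Pcf11-AARR. The percent of assigned reads in 5' UTRs was 0.45 to 0.55, 0.19 to 0.21 and 0.11 to 0.14 in these strains. Such values were not at hand for Pcf11-OE1 and Pcf11-OE2. The part of these differences in the calls was not tested. Strain background cannot be told apart from the Pcf11 alteration: ASP3-2, of the asparaginase cluster that S288C has and CEN.PK strains lack, had 2 counts over the 3 WT libraries and 16082, 16222, 14683 and 15076 counts in the other strains in the order above. The 4 genes of the cluster together stood at 12.9, 4.47 and 13.9 CPM in the WT libraries and averaged 213, 173, 195 and 211 CPM in the other strains. All 4 were called higher than in WT, except in Pcf11-AARR, where 3 were. MFA2, an a-specific pheromone gene, stood at 7.69, 5.35 and 6.09 CPM in the WT libraries and at 67.4 to 259 CPM in the other 12. Of 5 a-specific genes with MFA2, 4 were called higher than in WT in each altered strain, and 1 lower in Pcf11-AARR. Together the 5 averaged 230 CPM in WT and 504, 293, 446 and 547 CPM in the other strains. Of 3 alpha-specific genes, 2, 2, 1 and 2 were called higher, beside 34.8%, 33.8%, 36% and 34% of all features. The part of these differences in the results was not tested. The 3 WT libraries serve all 4 comparisons with WT, which are therefore not independent. Levels come from bulk RNA, in which fewer cells of a type and less RNA per cell cannot be told apart. Exact permutation tests of 3 libraries against 3 cannot give a p below 0.1, two-sided, so calls rest on edgeR's quasi-likelihood test with Benjamini-Hochberg adjustment over all 6147 features, at an adjusted p of 0.05.

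In the ΔPcf11-labelled libraries, 16 of the 54 genes were called higher than in WT, 18 lower and 20 were not called. Over all features tested, 34.8% were called higher and 29.1% lower, so the members' 29.6% and 33.3% lay near the background. In Pcf11-AARR, 21 genes were higher and 15 lower (38.9% and 27.8%), beside 33.8% and 30.4% of all features. In Pcf11-OE1, 25 were higher and 16 lower (46.3% and 29.6%), beside 36% and 32.1%. In Pcf11-OE2, 19 were higher and 17 lower (35.2% and 31.5%), beside 34% and 31.1%. The median log2 fold change of the 54 was -0.10, 0.14, 0.27 and 0.16 in that order, and that of all features 0.07, 0.05, 0.04 and 0.02. In each strain some of these genes rose and others fell. The shares of all features given here are the background for the counts by overlap, pathway and motif below.

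**Figure D1:**
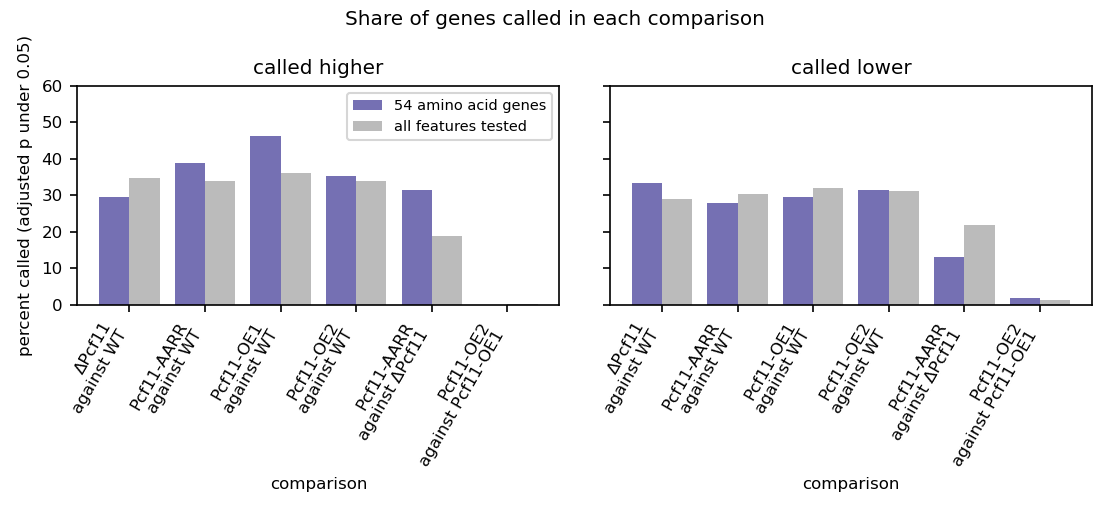
Percent of the 54 amino acid genes (purple) and of all 6147 features tested (grey) called higher (left) or lower (right) at an edgeR adjusted p under 0.05 in each of the 6 comparisons. In Pcf11-OE1, 46.3% of the genes and 36% of all features were called higher.

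Calls depended on the scaling. With library totals alone in place of TMM, the median log2 fold change of all features shifted to 0.20, 0.41, 0.34 and 0.28 in the 4 comparisons with WT, and the members called higher and lower became 19 and 13, 32 and 6, 31 and 13, and 27 and 12. Directions below are relative to the median feature. Leaving out 1 library at a time kept 24 of 34 calls, 29 of 36, 38 of 41 and 31 of 36 through every omission. Of the 54 genes, 8 were higher in all 4 comparisons (ARG3, ARO2, ARO8, BAT1, HIS4, HOM3, PRO2 and TRP4), 9 were lower in all 4 (ASN2, BAT2, GCN4, HIS5, LEU4, LYS1, LYS20, TRP2 and TYR1), 6 were called in both directions (ARO1, ASN1, HIS3, ILV3, LYS4 and THR1) and 4 in none (ARG7, PRO1, PRO3 and TRP5). With library totals alone, 14 genes were higher in all 4, and 4 were lower in all 4 (BAT2, GCN4, LEU4 and LYS20). The share of all features called alike in all 4 was not worked out, and the 4 comparisons share the WT libraries. These counts therefore do not set the 54 genes apart from other features.

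**Figure D2:**
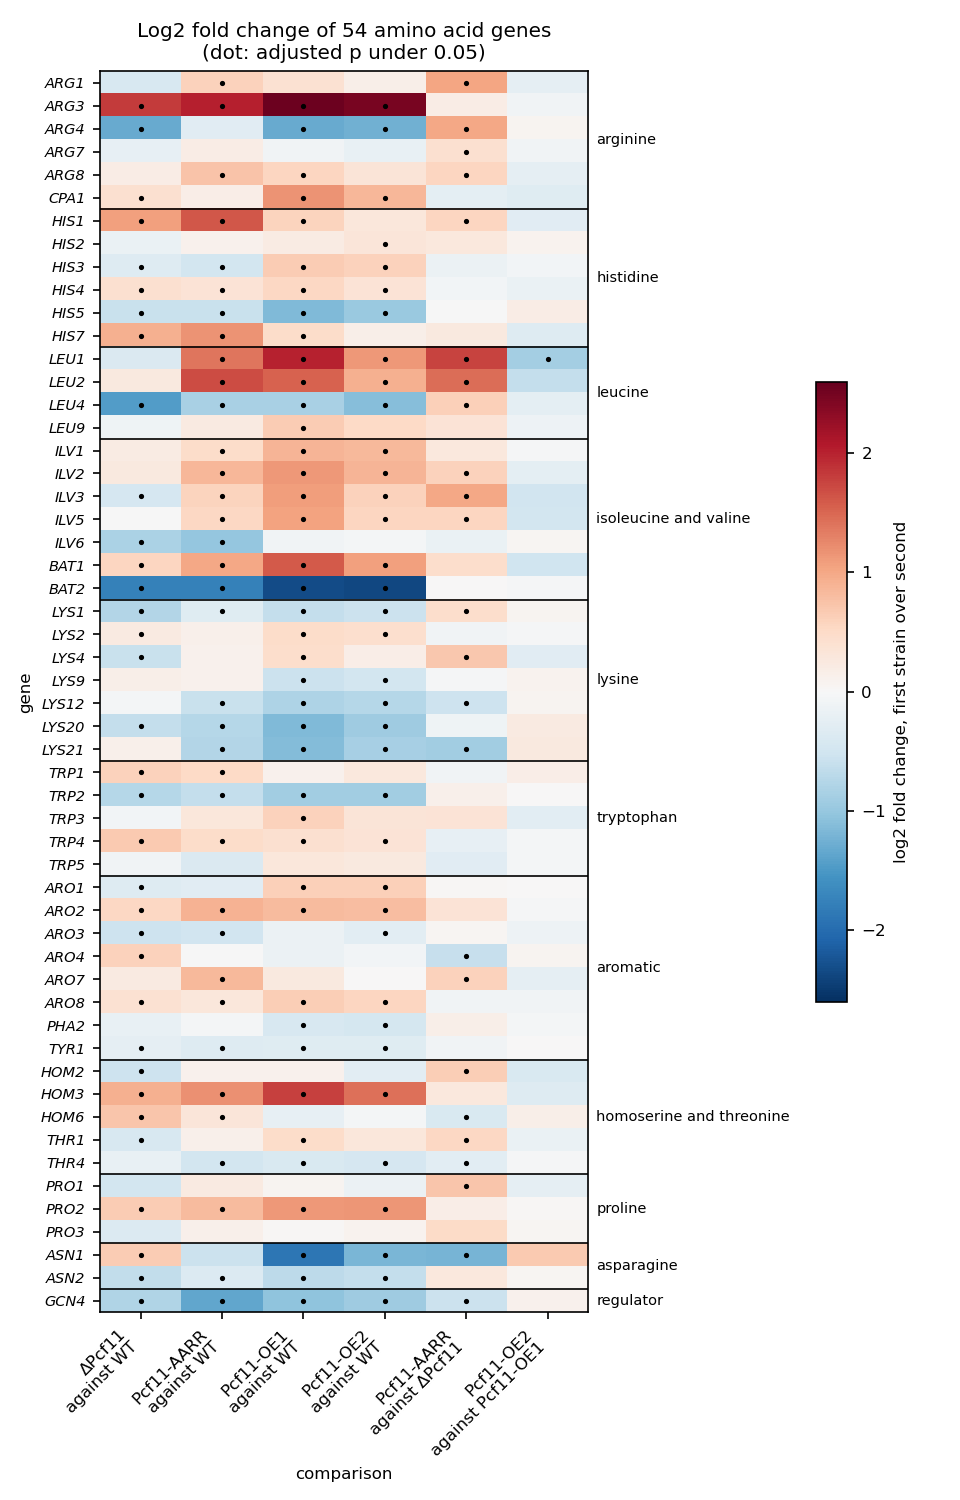
Log2 fold change of each of the 54 genes (rows, by pathway) in the 6 comparisons (columns), red for higher and blue for lower in the first strain, with a dot where the edgeR adjusted p was under 0.05. Genes of 1 pathway often differ in colour, as BAT1 and BAT2 do, and the last column, Pcf11-OE2 against Pcf11-OE1, holds 1 dot, at LEU1.

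Many of these genes share bases with a neighbour: 46 of 54 overlap another annotated feature, 23 over more than 20% of their length, with a median of 13.7%. In the 9 libraries with a deposited number of mapped reads, the named features held 1.23 to 1.29 counts per mapped read, so reads in shared bases may count for both features. Among the 31 members overlapped by at most 20%, a cutoff chosen after the values were seen, 9 were higher and 11 lower in the ΔPcf11-labelled libraries, 13 and 8 in Pcf11-AARR, 17 and 8 in Pcf11-OE1 and 12 and 8 in Pcf11-OE2. The neighbour that covers most of a gene is given below for a part of these genes, and its share in the gene's counts was not tested.

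GCN4 (chromosome V, bases 138506 to 139763, minus strand, assembly R64) was lower than in WT in all 4 altered strains. GCN4 stood at 223, 231 and 234 CPM in WT, 119.5, 151 and 130.2 in the ΔPcf11-labelled libraries, 91.8, 92.3 and 86.7 in Pcf11-AARR, 125, 105 and 102 in Pcf11-OE1 and 126, 115 and 119 in Pcf11-OE2. Every altered library lay below every WT library, and the Pcf11-AARR libraries were the lowest of all. The log2 fold changes against WT were -0.78 ± 0.10 (SE), -1.35 ± 0.11, -1.05 ± 0.10 and -0.93 ± 0.10, with edgeR adjusted p of 1.64e-05, 8.28e-08, 6.87e-07 and 2.59e-06. Pcf11-AARR was also below the ΔPcf11-labelled libraries (-0.56 ± 0.10, edgeR adjusted p = 8.32e-04). These are transcript levels, and Gcn4 protein was not measured. In the pathway that governs it, GCN2, the kinase gene, fell in all 4 (-0.72, -0.91, -0.76 and -0.75), and PCL5, the cyclin gene that promotes Gcn4 breakdown, rose in all 4 (1.28, 0.84, 1.26 and 1.57). The list they belong to moved in both directions. Of the 12 genes of the Gcn2 pathway and eIF2B, 3 were higher and 4 lower in the ΔPcf11-labelled libraries, 4 and 5 in Pcf11-AARR, 5 and 6 in Pcf11-OE1 and 4 and 6 in Pcf11-OE2. Of all features, 34.8% were higher and 29.1% lower, 33.8% and 30.4%, 36% and 32.1%, and 34% and 31.1%, in the same order.

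**Figure D3:**
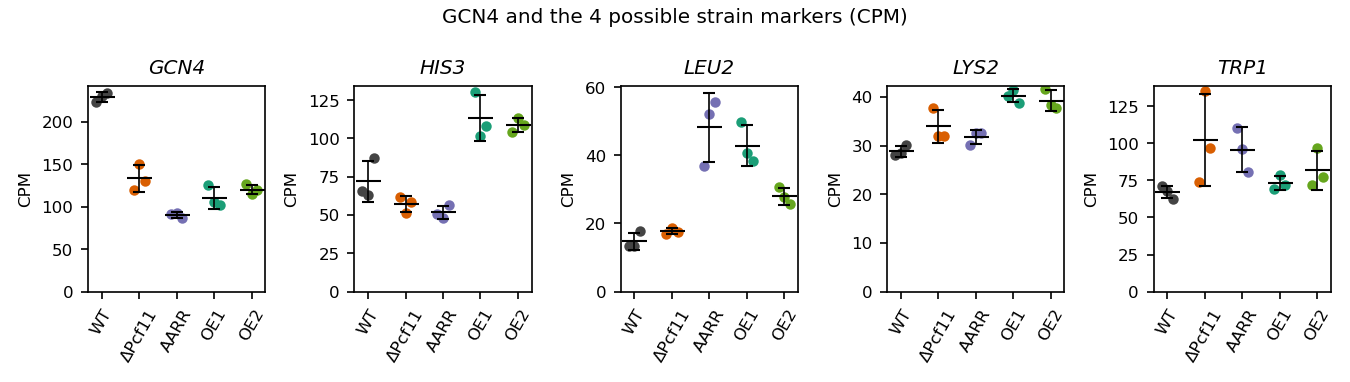
Levels (CPM after scaling) of GCN4, HIS3, LEU2, LYS2 and TRP1 in each of 15 libraries (points), by strain, with mean and SD (black). GCN4 is highest in the 3 WT libraries, and none of the marker genes is near 0 in any strain.

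The Gcn4 site TGACTCA, searched on both strands in the 500 bases before each start codon of assembly R64, was present in 30 of the 54 genes (55.6%) and in 241 of 6006 such windows over the genome (4.01%). Sites of genes that moved in opposite directions are shown, since the same letters preceded both, written along each gene's strand with the site in capitals (TGAGTCA is the site on the other strand). HIS1, HIS4 and HIS7 were among the genes that rose in 3 or 4 strains, and HIS5, TRP2 and LYS1 fell in all 4, though none of these 3 was called in Pcf11-AARR with library totals alone.
HIS1: aagcttccaagTGAGTCAcctctaccgtt
HIS4: cccatgcacagTGACTCAcgtttttttat
HIS7: caaaaaaaaatTGAGTCAtatcgtagctt
HIS5: cttggatctgtTGACTCActtcaattgat
TRP2: cagtgatttgcTGACTCAttacgattttt
LYS1: tactaagtcgaTGAGTCAaaaaagactct
In that order these stretches lie on chromosome V 265952 to 265980, III 68515 to 68543, II 716679 to 716707, IX 142715 to 142743, V 337776 to 337804, IX 420969 to 420997. Of the 30 genes with a site, 11 were higher and 10 lower in the ΔPcf11-labelled libraries, 12 and 7 in Pcf11-AARR, 16 and 8 in Pcf11-OE1 and 11 and 8 in Pcf11-OE2. Of the 24 without one, the counts were 5 and 8, 9 and 8, 9 and 8, and 8 and 9. Of all features, 34.8% were higher and 29.1% lower, 33.8% and 30.4%, 36% and 32.1%, and 34% and 31.1%, in the same order. Whether genes with and without a site differ was not tested. A match in this window is a description of the letters there, not of binding.

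The leucine, isoleucine and valine genes that carry the Leu3 motif rose together in Pcf11-AARR, Pcf11-OE1 and Pcf11-OE2. The motif, CCGG, any 2 bases and CCGG, which reads alike on both strands, was found in the 500 bases before the start codon of 5 of the 54 genes (9.26%) and of 16 of 6006 genes over the genome (0.266%). The 5 stretches are shown with the motif in capitals, because these genes rose in the same 3 strains; the motif was looked for with the earlier results known, and ILV1 and ILV3 rose in these strains without it.
ILV2: ccggagcctgCCGGTACCGGcttggcttca
ILV5: gcggtctcctCCGGTACCGGttctgccacc
BAT1: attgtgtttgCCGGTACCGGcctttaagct
LEU1: aacgaaaattCCGGGACCGGcgaaatttgc
LEU2: ggtgagagcgCCGGAACCGGcttttcatat
In that order they lie on chromosome XIII 483606 to 483635, XII 839611 to 839640, VIII 517375 to 517404, VII 478850 to 478879, III 91116 to 91145, and the motifs end 458, 367, 137, 207 and 188 bases before the start codon. All 5 genes were called higher in each of the 3 strains, with medians of 1.01, 1.53 and 0.92 on the log2 scale, whereas in the ΔPcf11-labelled libraries 1 of 5, BAT1, was called higher. The 49 members without the motif had 16, 20 and 14 called higher in the same 3 strains and 15 in the ΔPcf11-labelled libraries.

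LEU1 (chromosome VII, bases 475894 to 478652, minus strand) encodes isopropylmalate isomerase, the second step from the branch point to leucine. LEU1 stood at 59.8, 58.1 and 65.7 CPM in WT, 52.7, 40.7 and 49.1 in the ΔPcf11-labelled libraries, 119.5, 172 and 189 in Pcf11-AARR, 272, 225 and 237 in Pcf11-OE1 and 159, 117 and 124 in Pcf11-OE2. The 3 Pcf11-OE1 libraries were the highest and the ΔPcf11-labelled ones lay below WT, though not past the threshold (-0.37 ± 0.16, edgeR adjusted p = 0.0641), which they passed without their replicate 1 (-0.45, edgeR adjusted p = 0.0492) and with 1 fit per count table, DESeq2, a fit of only the 2 strains and relative log expression scaling (adjusted p = 0.0148 to 0.0473). Against WT the rise was 1.39 ± 0.17, 2.0 ± 0.17 and 1.12 ± 0.17 in Pcf11-AARR, Pcf11-OE1 and Pcf11-OE2 (edgeR adjusted p = 5.56e-06, 1.49e-07 and 3.67e-05). LEU2, encoding the dehydrogenase of the next step and often used as a selection marker, also rose in these 3 strains. LEU2 stood at 13.3, 13.3 and 17.7 CPM in WT, 17, 18.7 and 17.4 in the ΔPcf11-labelled libraries, 36.8, 52.1 and 55.6 in Pcf11-AARR, 49.7, 40.6 and 38.3 in Pcf11-OE1 and 30.6, 27.6 and 25.6 in Pcf11-OE2. Its Pcf11-AARR, Pcf11-OE1 and Pcf11-OE2 libraries all lay above every WT and ΔPcf11-labelled library, with log2 fold changes of 1.70, 1.53 and 0.92 against WT (edgeR adjusted p = 6.39e-07, 1.37e-06 and 1.83e-04). LEU2 overlaps NFS1 on the other strand over 36.0% of its length, and NFS1 changed by -0.34, 0.00, 0.12 and 0.10 in the 4 comparisons.

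ILV2, the catalytic subunit of acetolactate synthase, ILV5, the reductoisomerase, and ILV3, the dehydratase, serve valine and isoleucine together. ILV2 stood at 108, 101 and 121 CPM in WT, 134, 122 and 136 in the ΔPcf11-labelled libraries, 182, 197 and 218 in Pcf11-AARR, 282, 204 and 235 in Pcf11-OE1 and 233, 173 and 199.8 in Pcf11-OE2. ILV5 stood at 105, 108 and 112 CPM in WT, 109.6, 101 and 111 in the ΔPcf11-labelled libraries, 138, 159 and 177 in Pcf11-AARR, 279, 180.4 and 209 in Pcf11-OE1 and 191, 142 and 144 in Pcf11-OE2. In both genes the Pcf11-AARR, Pcf11-OE1 and Pcf11-OE2 libraries lay above every WT library, and the ΔPcf11-labelled ones did not pass the test (0.25 and -0.01, edgeR adjusted p = 0.126 and 0.944). Their log2 fold changes were 0.85, 1.12 and 0.88 for ILV2 and 0.55, 1.04 and 0.55 for ILV5 in the 3 strains. ILV3, without the Leu3 motif, fell in the ΔPcf11-labelled libraries (-0.43, edgeR adjusted p = 0.041) and rose in the other 3 strains (0.57, 1.09 and 0.60). ILV1, threonine deaminase, rose in the same 3 strains (0.47, 0.88 and 0.84). ILV6, the regulatory subunit that partners ILV2, did not follow ILV2: it fell by 0.82 in the ΔPcf11-labelled libraries and by 1.0 in Pcf11-AARR on the log2 scale and was not called in Pcf11-OE1 and Pcf11-OE2 (-0.10 and -0.05), and its same-strand neighbour STP22, which covers 21.6% of it, changed by -0.82, -1.0, 0.14 and 0.19. Scaling by library totals alone ended the calls of ILV3 in the ΔPcf11-labelled libraries (-0.30, edgeR adjusted p = 0.148). ILV1 and ILV2 were called higher in the ΔPcf11-labelled libraries with library totals alone (edgeR adjusted p = 0.0257 and 0.0214). Leaving out 1 library, named by strain and replicate, ended the call of ILV3 in the ΔPcf11-labelled libraries without ΔPcf11 1, ΔPcf11 2, ΔPcf11 3 or WT 3 (edgeR adjusted p = 0.0638 to 0.25) and ILV3 in Pcf11-AARR without Pcf11-AARR 3 (edgeR adjusted p = 0.0542).

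**Figure D4:**
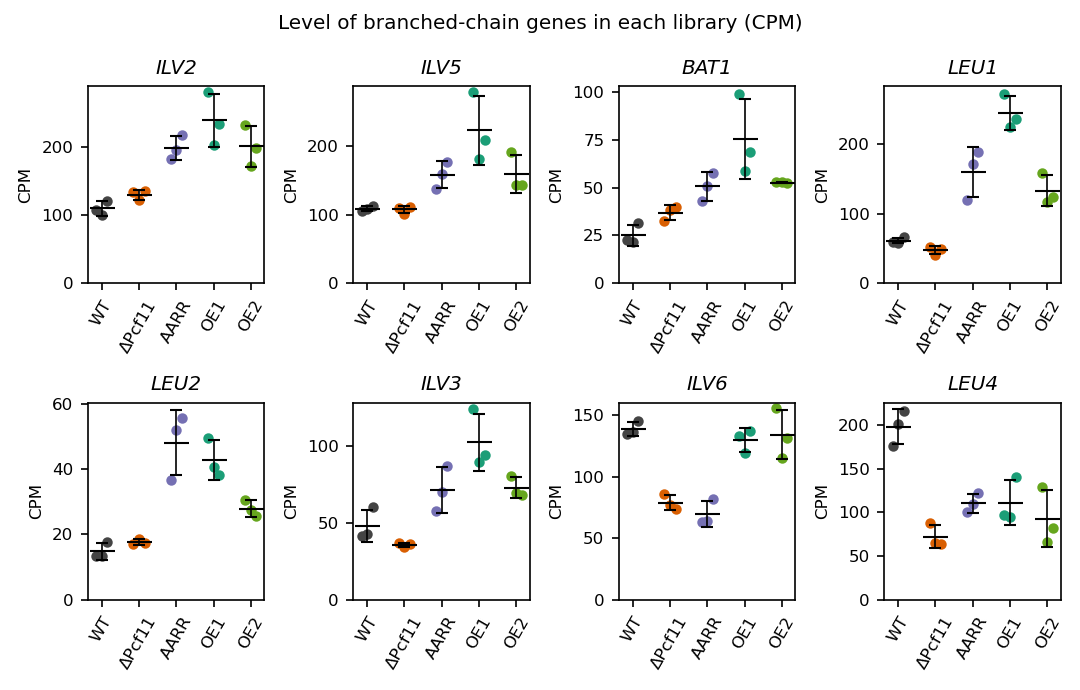
Levels (CPM after scaling) of 8 branched-chain genes in each of 15 libraries (points), by strain, with mean and SD (black). ILV2, ILV5, BAT1, LEU1 and LEU2, which carry the Leu3 motif, rise in Pcf11-AARR, Pcf11-OE1 and Pcf11-OE2, while LEU4 is highest in WT.

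The paralogs of these pathways parted. BAT1 and BAT2 encode the mitochondrial and the cytosolic branched-chain aminotransferase, the first mostly for synthesis and the second mostly for breakdown. BAT1 stood at 22.8, 21.3 and 31.4 CPM in WT, 32.4, 38.4 and 40.0 in the ΔPcf11-labelled libraries, 43.1, 51.0 and 57.9 in Pcf11-AARR, 99.3, 58.8 and 68.7 in Pcf11-OE1 and 53.1, 52.7 and 52.2 in Pcf11-OE2. BAT2 stood at 327, 357 and 336 CPM in WT, 115, 90.3 and 95.5 in the ΔPcf11-labelled libraries, 97.2, 89.5 and 115 in Pcf11-AARR, 51.3, 53.1 and 97.9 in Pcf11-OE1 and 94.8, 44.9 and 58.2 in Pcf11-OE2. BAT1 was higher in all 4 strains (0.55, 1.01, 1.59 and 1.07; edgeR adjusted p = 0.0174, 2.75e-04, 4.09e-06 and 1.74e-04) and BAT2 lower in all 4 (-1.76, -1.76, -2.33 and -2.37; edgeR adjusted p = 5.05e-05, 4.53e-05, 3.16e-06 and 3.29e-06), with every altered BAT2 library below every WT library. With 1 library left out, given by strain and replicate, the test was no longer passed by BAT1 in the ΔPcf11-labelled libraries without ΔPcf11 3, WT 1 or WT 2 (edgeR adjusted p = 0.0616 to 0.0783). LEU4 and LEU9 both encode alpha-isopropylmalate synthase, the first step to leucine. LEU4 stood at 176, 201 and 215 CPM in WT, 87.8, 64.9 and 63.7 in the ΔPcf11-labelled libraries, 100.3, 109 and 122 in Pcf11-AARR, 97.0, 94.9 and 140.3 in Pcf11-OE1 and 129, 66.1 and 82.1 in Pcf11-OE2. LEU9 stood at 4.81, 3.06 and 5.25 CPM in WT, 4.13, 3.44 and 4.48 in the ΔPcf11-labelled libraries, 4.95, 5.51 and 4.98 in Pcf11-AARR, 8.71, 5.97 and 6.04 in Pcf11-OE1 and 4.40, 7.75 and 6.70 in Pcf11-OE2. LEU4, which carries no Leu3 motif in the window searched, fell in all 4 strains (-1.45, -0.84, -0.83 and -1.10), its altered libraries all below every WT library. LEU9, at 1.97 ± 0.520 CPM per kb in WT where LEU4 had 84.5 ± 8.58 (SD, n = 3), was called higher in Pcf11-OE1 alone among the 4 (0.66 ± 0.23, edgeR adjusted p = 0.0213), while in Pcf11-OE2 it gave 0.52 (edgeR adjusted p = 0.0616), and the difference between these strains was not past the threshold (-0.13 ± 0.23, edgeR adjusted p = 0.934). The call in Pcf11-OE1 ended with 1 fit per count table (adjusted p = 0.0518). With library totals alone, LEU9 was called higher in Pcf11-AARR and Pcf11-OE2 too (edgeR adjusted p = 0.0424 and 0.00906). The test was no longer passed, once 1 library was left out, by LEU9 in Pcf11-OE1 without Pcf11-OE1 1 or WT 2 (edgeR adjusted p = 0.106 to 0.116).

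Around the branch, OAC1, a mitochondrial carrier known to export alpha-isopropylmalate, rose in all 4 strains (1.33, 2.55, 2.35 and 1.61). LEU3, the regulator's own gene, was lower in the ΔPcf11-labelled libraries (-0.52), not called in Pcf11-AARR (0.23, edgeR adjusted p = 0.0739) and higher in Pcf11-OE1 and Pcf11-OE2 (0.77 and 0.65). Of 7 genes of amino acid breakdown, 5 fell both in the ΔPcf11-labelled libraries and with Pcf11-AARR, and the overexpression strains had 7 and 6 that fell, beside 29.1%, 30.4%, 32.1% and 31.1% of all features called lower. ARO10, a decarboxylase that acts after aminotransferases such as BAT2 in the formation of fusel alcohols, changed by -1.93, -3.66, -2.96 and -3.13 on the log2 scale, and CAR1, arginase, by -2.26, -1.10, -1.63 and -1.60. PUT1, proline oxidase, changed by -1.52, -1.27, -1.91 and -1.73.

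Among the arginine genes, 2 were higher and 1 lower of 6 in the ΔPcf11-labelled libraries, 3 and 0 in Pcf11-AARR, 3 and 1 in Pcf11-OE1 and 2 and 1 in Pcf11-OE2. In Pcf11-AARR, where 0 were called lower, 0 were lower at an unadjusted p under 0.05 and 0 by DESeq2, but 1 fit per count table called ARG4 lower (-0.33, edgeR adjusted p = 0.043). ARG4, argininosuccinate lyase, gave the largest fall. ARG4 stood at 151, 139 and 195 CPM in WT, 68.1, 67.1 and 61.9 in the ΔPcf11-labelled libraries, 146, 119 and 131 in Pcf11-AARR, 60.4, 60.2 and 74.5 in Pcf11-OE1 and 85.7, 49.9 and 68.7 in Pcf11-OE2. Its ΔPcf11-labelled, Pcf11-OE1 and Pcf11-OE2 libraries lay below every WT library and its Pcf11-AARR libraries overlapped WT, with log2 fold changes of -1.30, -0.30, -1.31 and -1.25 (edgeR adjusted p = 1.99e-05, 0.147, 1.29e-05 and 2.40e-05). YSC83, on the other strand over 40.8% of ARG4, changed by -0.77, 0.09, -0.16 and -0.30. ARG3, ornithine carbamoyltransferase, gave the largest rise (1.81, 2.02, 2.55 and 2.46; edgeR adjusted p = 7.80e-07, 2.32e-07, 1.85e-08 and 2.77e-08). ARG3 stood at 2.08, 1.5 and 1.88 CPM in WT, 6.39, 5.94 and 6.87 in the ΔPcf11-labelled libraries, 7.75, 6.99 and 7.36 in Pcf11-AARR, 9.57, 9.18 and 13.1 in Pcf11-OE1 and 11, 8.67 and 10.4 in Pcf11-OE2. At 1.22 ± 0.199 CPM per kb in WT it was among the 3 lowest of the 54. Of ARG3, 53.7% is overlapped, mostly by TRL1 on the other strand, which had 1.68 times the read density. TRL1 rose by 1.61, 1.62, 1.64 and 1.27, and its part in the ARG3 values was not tested. CPA1, the small subunit of carbamoyl phosphate synthetase, rose in the ΔPcf11-labelled libraries and both overexpression strains (0.41, 1.18 and 0.86). YOR302W, on the same strand over 19.7% of CPA1, changed by 0.13, 0.05, 1.79 and 1.48. Whether the reads of YOR302W and CPA1 come from 1 transcript was not tested. ARG8 rose in Pcf11-AARR and Pcf11-OE1 (0.74 and 0.56) and ARG1 in Pcf11-AARR (0.60), and ARG7, with values from -0.22 to 0.20, was not called against WT, except in Pcf11-AARR with library totals alone (adjusted p = 0.00512). ARG1 was called lower in the ΔPcf11-labelled libraries with 1 fit per count table, DESeq2, a fit of only the 2 strains and relative log expression scaling (adjusted p = 0.00419 to 0.0429). In Pcf11-OE1 it was called higher with library totals alone and a fit of only the 2 strains (adjusted p = 0.00272 to 0.0463). Library totals alone also called CPA1 higher in Pcf11-AARR (0.53) and ARG8 in Pcf11-OE2 (0.61). Leaving out 1 library, named by strain and replicate, ended the call of ARG1 in Pcf11-AARR without WT 1 (edgeR adjusted p = 0.0525).

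Of the 6 histidine genes, 3 were higher and 2 lower in the ΔPcf11-labelled libraries and in Pcf11-AARR, 4 and 1 in Pcf11-OE1 and 3 and 1 in Pcf11-OE2. HIS1, which encodes the first enzyme, rose in the ΔPcf11-labelled libraries, Pcf11-AARR and Pcf11-OE1. HIS1 stood at 17.8, 18.4 and 18.3 CPM in WT, 41.9, 29.7 and 41.8 in the ΔPcf11-labelled libraries, 59.4, 50.4 and 56.9 in Pcf11-AARR, 28.0, 27.1 and 26.3 in Pcf11-OE1 and 19.4, 23.1 and 24.3 in Pcf11-OE2. Its Pcf11-AARR libraries were the highest, 3.05 times WT in the fit, and the log2 fold changes were 1.06, 1.61, 0.58 and 0.29 (edgeR adjusted p = 7.64e-06, 1.19e-07, 0.00112 and 0.0606). HIS7, a middle enzyme, followed with 0.91, 1.16, 0.48 and 0.15, and HIS4, a multifunctional enzyme, rose in all 4 strains by 0.35 to 0.53. HIS5, the aminotransferase, fell in all 4. HIS5 stood at 29.3, 32.3 and 33.4 CPM in WT, 19.3, 20.2 and 23.9 in the ΔPcf11-labelled libraries, 20.6, 20.8 and 21.9 in Pcf11-AARR, 16.2, 12 and 14.8 in Pcf11-OE1 and 18.9, 15.1 and 14.9 in Pcf11-OE2. All altered libraries lay below WT (-0.58, -0.58, -1.14 and -0.96; edgeR adjusted p = 0.00127, 0.00118, 2.84e-06 and 1.69e-05). HIS2, the phosphatase, was called in Pcf11-OE2 (0.31, edgeR adjusted p = 0.0315) and gave -0.17 to 0.21 elsewhere. Library totals alone also called HIS2 higher in Pcf11-AARR and Pcf11-OE1 (0.47 and 0.50, edgeR adjusted p = 0.00194 and 0.00111). Under library totals alone the test was missed by HIS5 in Pcf11-AARR (-0.23, edgeR adjusted p = 0.116). HIS7 in Pcf11-OE1 was no longer called with DESeq2, relative log expression scaling and the replicate block (adjusted p = 0.0592 to 0.0678), nor HIS2 in Pcf11-OE2 with 1 fit per count table and a fit of only the 2 strains (adjusted p = 0.0547 to 0.0721), while HIS1 in Pcf11-OE2 was called with 1 fit per count table and library totals alone (adjusted p = 0.00446 to 0.0404). With 1 library left out, given by strain and replicate, the test was no longer passed by HIS7 in Pcf11-OE1 without Pcf11-OE1 1, Pcf11-OE1 2, WT 1 or WT 3 (edgeR adjusted p = 0.098 to 0.179) and HIS4 in Pcf11-OE2 without Pcf11-OE2 3 (edgeR adjusted p = 0.0505). The same held for HIS2 in Pcf11-OE2 without Pcf11-OE2 1, Pcf11-OE2 3, WT 1 or WT 2 (edgeR adjusted p = 0.0583 to 0.141).

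HIS3, LEU2, LYS2 and TRP1 are genes that laboratory strains often carry mutated or use as selection markers. HIS3 stood at 65.5, 63.1 and 87.2 CPM in WT, 61.5, 51.6 and 58.5 in the ΔPcf11-labelled libraries, 50.4, 48.2 and 56.4 in Pcf11-AARR, 130.3, 102 and 108 in Pcf11-OE1 and 104, 113 and 109 in Pcf11-OE2. LYS2 stood at 28.0, 28.4 and 30.1 CPM in WT, 37.8, 32.0 and 32.0 in the ΔPcf11-labelled libraries, 30.2, 32.6 and 32.6 in Pcf11-AARR, 40.3, 41.5 and 38.8 in Pcf11-OE1 and 41.6, 38.4 and 37.7 in Pcf11-OE2. TRP1 stood at 71.2, 67.9 and 62.7 CPM in WT, 74.2, 135 and 96.7 in the ΔPcf11-labelled libraries, 111, 96.2 and 80.5 in Pcf11-AARR, 69.1, 78.6 and 71.7 in Pcf11-OE1 and 71.6, 96.8 and 77.3 in Pcf11-OE2. None of the 4 was absent from any library, and LEU2 is given above. HIS3, imidazoleglycerol-phosphate dehydratase, was lower in the ΔPcf11-labelled libraries and Pcf11-AARR (-0.33 and -0.48; edgeR adjusted p = 0.0391 and 0.00528) and higher in Pcf11-OE1 and Pcf11-OE2 (0.66 and 0.59; edgeR adjusted p = 4.54e-04 and 0.00113). TRP1 was higher in the ΔPcf11-labelled libraries and Pcf11-AARR (0.60 and 0.51), and LYS2 in the ΔPcf11-labelled libraries, Pcf11-OE1 and Pcf11-OE2 (0.23, 0.48 and 0.44). Mutated alleles can still be transcribed, so read counts do not tell whether these genes work. With library totals alone the calls ended for HIS3 in the ΔPcf11-labelled libraries (-0.20, edgeR adjusted p = 0.248) and Pcf11-AARR (-0.12, edgeR adjusted p = 0.475). TRP1 was then called higher in Pcf11-OE1 and Pcf11-OE2 as well (0.42 and 0.56), and LYS2 in Pcf11-AARR (0.50). LYS2 in the ΔPcf11-labelled libraries was no longer called with 1 fit per count table, DESeq2, a fit of only the 2 strains, relative log expression scaling and the replicate block (adjusted p = 0.0534 to 0.19). RAD16, on the other strand over 17.3% of LYS2 with 10.1 times its read density, changed by 1.94, 2.33, 2.42 and 2.43. DED1, on the same strand over 12.7% of HIS3, changed by -0.11, 0.06, 0.74 and 0.60. The test was no longer passed, once 1 library was left out, by HIS3 in the ΔPcf11-labelled libraries without ΔPcf11 2, ΔPcf11 3 or WT 3 (edgeR adjusted p = 0.0698 to 0.256) and LYS2 in the ΔPcf11-labelled libraries without ΔPcf11 1, WT 1 or WT 2 (edgeR adjusted p = 0.0847 to 0.178). This was also so for TRP1 in the ΔPcf11-labelled libraries without ΔPcf11 2 (edgeR adjusted p = 0.0758) and TRP1 in Pcf11-AARR without Pcf11-AARR 1, Pcf11-AARR 2, WT 2 or WT 3 (edgeR adjusted p = 0.0537 to 0.106).

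Of the 7 lysine genes, 1 was higher and 3 lower in the ΔPcf11-labelled libraries, 0 and 4 in Pcf11-AARR (0 higher also at an unadjusted p under 0.05 and in DESeq2), 2 and 5 in Pcf11-OE1 and 1 and 5 in Pcf11-OE2. With library totals alone, Pcf11-AARR had 3 higher (LYS2, LYS4 and LYS9) and 2 lower, and Pcf11-OE2 had 2 and 4. LYS4 was the gene added in Pcf11-OE2 (0.43), and LYS9 was called higher in the ΔPcf11-labelled libraries (0.28). LYS14, which encodes the pathway's activator, fell in all 4 (-0.87, -1.04, -0.75 and -0.84). LYS20 and LYS21 both encode homocitrate synthase, the first step, and were among the members with the most reads per length: per kilobase LYS20 led all 54 in WT (398 ± 28.3 CPM per kb, SD, n = 3), before ASN1 (240.0 ± 38.2), while the means stood the other way round in the ΔPcf11-labelled libraries (258 ± 45.1 and 379 ± 137). LYS20 stood at 655, 708 and 755 CPM in WT, 377, 536 and 460.2 in the ΔPcf11-labelled libraries, 468, 431 and 365 in Pcf11-AARR, 309, 310.3 and 335 in Pcf11-OE1 and 383, 347 and 393 in Pcf11-OE2. LYS21 stood at 369.9, 418 and 403 CPM in WT, 337, 531 and 437 in the ΔPcf11-labelled libraries, 258, 260.5 and 181 in Pcf11-AARR, 168, 185 and 194 in Pcf11-OE1 and 247, 193 and 213 in Pcf11-OE2. LYS20 fell in all 4 strains (-0.63, -0.74, -1.15 and -0.92; edgeR adjusted p = 8.04e-04, 1.80e-04, 2.84e-06 and 2.86e-05). LYS21 fell in 3 of them but in the ΔPcf11-labelled libraries gave 0.13 ± 0.17 (edgeR adjusted p = 0.506), with replicates from 337 to 531 CPM that spanned WT. Of the later enzymes, LYS12 fell in Pcf11-AARR, Pcf11-OE1 and Pcf11-OE2 (-0.59, -0.81 and -0.75) and LYS9 in Pcf11-OE1 and Pcf11-OE2 (-0.57 and -0.48), while LYS4, homoaconitase, fell in the ΔPcf11-labelled libraries (-0.59) and rose in Pcf11-OE1 (0.46). LYS1, saccharopine dehydrogenase, fell in all 4 (-0.77, -0.32, -0.63 and -0.56), but in Pcf11-AARR it gave 0.036 with library totals alone, and MGA2, which covers 49.5% of it on the other strand, fell by 1.71, 1.54, 1.72 and 1.71. Scaling by library totals alone ended the calls of LYS12 in Pcf11-AARR (-0.23, edgeR adjusted p = 0.0732) and LYS9 in Pcf11-OE2 (-0.22, edgeR adjusted p = 0.0605). PRK1, on the other strand over 49.4% of LYS12, changed by 0.32, -0.05, -0.57 and -0.50. STF1, on the same strand over 1.98% of LYS21, changed by 0.45, -0.56, -1.21 and -0.88. Leaving out 1 library, named by strain and replicate, ended the call of LYS1 in Pcf11-AARR without Pcf11-AARR 2, Pcf11-AARR 3 or WT 2 (edgeR adjusted p = 0.0584 to 0.122).

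**Figure D5:**
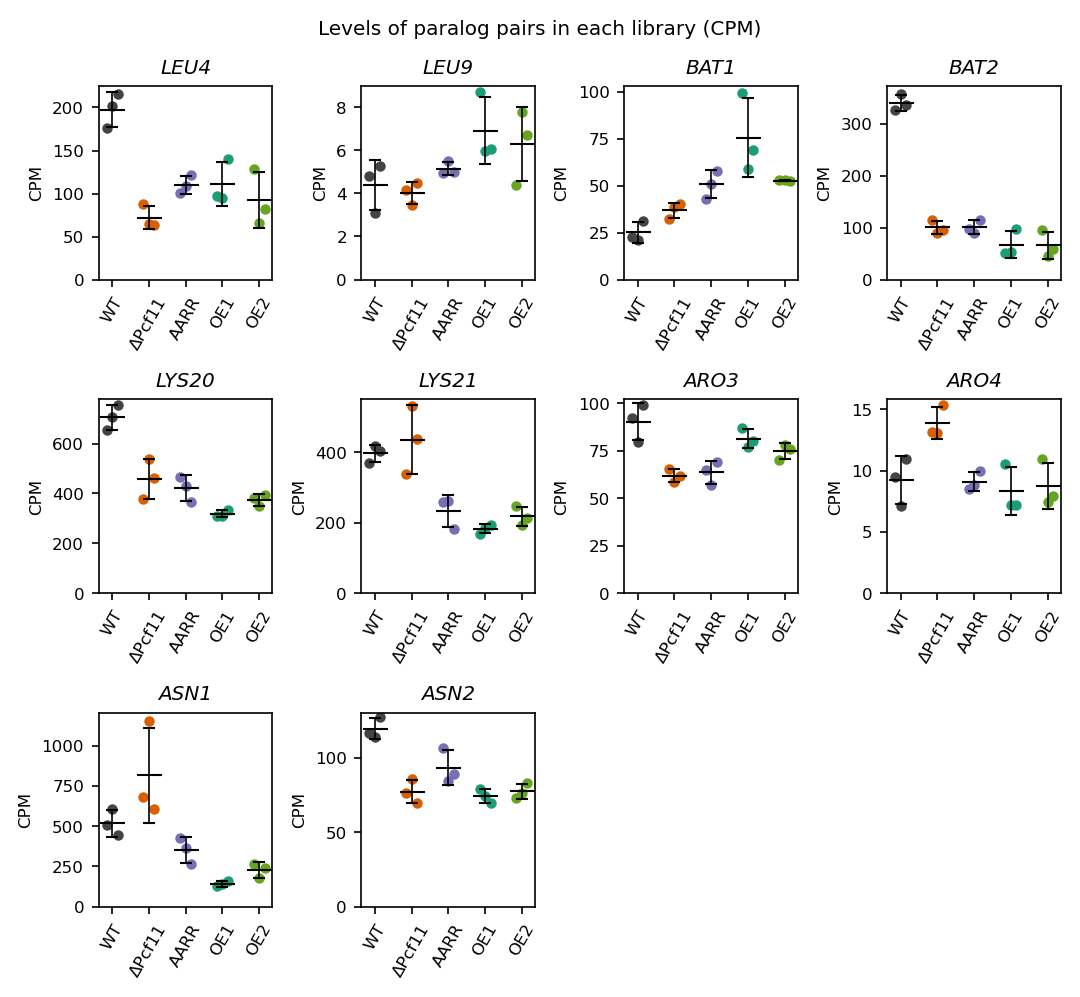
Levels (CPM after scaling) of both genes of 5 paralog pairs in each of 15 libraries (points), by strain, with mean and SD (black). BAT2 and LEU4 are highest in WT, BAT1 is lowest in WT, and ASN1 is highest in the ΔPcf11-labelled libraries and lowest in Pcf11-OE1.

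In the tryptophan branch, TRP4 rose and TRP2 fell in all 4 strains. TRP4 stood at 15.2, 17.5 and 13.4 CPM in WT, 26.5, 22.5 and 24.6 in the ΔPcf11-labelled libraries, 17.8, 22.6 and 23.1 in Pcf11-AARR, 21.5, 20.6 and 19.0 in Pcf11-OE1 and 19.8, 20.2 and 19.0 in Pcf11-OE2. TRP2 stood at 20.6, 19.3 and 24.7 CPM in WT, 12.1, 12.7 and 13.7 in the ΔPcf11-labelled libraries, 14.2, 13.8 and 14.0 in Pcf11-AARR, 13.6, 9.06 and 11.9 in Pcf11-OE1 and 11.7, 11.1 and 12 in Pcf11-OE2. TRP4, anthranilate phosphoribosyltransferase, gave 0.68, 0.47, 0.41 and 0.36, and TRP2, the preceding anthranilate synthase, -0.75, -0.62, -0.90 and -0.90 (edgeR adjusted p = 2.69e-04, 0.00108, 3.94e-05 and 5.02e-05). TRP3, a partner of TRP2 in the same enzyme, was called higher in Pcf11-OE1 (0.61), and TRP5, tryptophan synthase, in no comparison with WT; blocked by replicate number it was lower in Pcf11-AARR (-0.37, edgeR adjusted p = 0.0261), and it passed there with 1 fit per count table, DESeq2, a fit of only the 2 strains, relative log expression scaling and the replicate block (adjusted p = 0.0258 to 0.0467). Library totals alone called TRP5 higher in Pcf11-OE1 and Pcf11-OE2 (0.59 and 0.50) and TRP3 higher in Pcf11-AARR and Pcf11-OE2 as well (0.65 and 0.59). Under library totals alone the test was missed by TRP2 in Pcf11-AARR (-0.26, edgeR adjusted p = 0.0923). MET6, on the other strand over 24.8% of TRP2, changed by -0.48, 0.05, 0.02 and -0.22. With 1 library left out, given by strain and replicate, the test was no longer passed by TRP4 in Pcf11-OE2 without Pcf11-OE2 2, Pcf11-OE2 3 or WT 3 (edgeR adjusted p = 0.0528 to 0.0947).

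Among the 8 genes of the shared aromatic pathway with phenylalanine and tyrosine, 3 were higher and 3 lower in the ΔPcf11-labelled libraries, 3 and 2 in Pcf11-AARR and in Pcf11-OE1, and 3 and 3 in Pcf11-OE2. ARO2, chorismate synthase, rose in all 4 (0.53, 0.90, 0.82 and 0.79; edgeR adjusted p = 0.00496, 8.46e-05, 1.62e-04 and 2.41e-04). ARO2 stood at 22.4, 24.2 and 25.1 CPM in WT, 36.5, 32.2 and 35.2 in the ΔPcf11-labelled libraries, 45.8, 42.7 and 45.1 in Pcf11-AARR, 48.0, 44.4 and 34.3 in Pcf11-OE1 and 32.2, 48.4 and 43.7 in Pcf11-OE2. RPL9A, on the other strand over 43.0% of ARO2, changed by 1.81, 1.37, 0.18 and 0.00. ARO3 and ARO4 encode the entry enzyme of the pathway, inhibited by phenylalanine and by tyrosine. ARO3 stood at 92.3, 79.5 and 98.8 CPM in WT, 65.1, 58.3 and 61.6 in the ΔPcf11-labelled libraries, 64.8, 57.1 and 68.8 in Pcf11-AARR, 87.2, 77.0 and 80.0 in Pcf11-OE1 and 70.1, 78.1 and 75.9 in Pcf11-OE2. ARO4 stood at 9.52, 7.10 and 11 CPM in WT, 13.1, 13.1 and 15.4 in the ΔPcf11-labelled libraries, 8.46, 8.84 and 10 in Pcf11-AARR, 10.6, 7.22 and 7.22 in Pcf11-OE1 and 10.9, 7.41 and 7.90 in Pcf11-OE2. ARO3 fell in the ΔPcf11-labelled libraries, Pcf11-AARR and Pcf11-OE2 (-0.55, -0.50 and -0.27), whereas ARO4 was called once, higher in the ΔPcf11-labelled libraries (0.59, edgeR adjusted p = 0.0152). ARO1, the pentafunctional enzyme, was lower in the ΔPcf11-labelled libraries (-0.34) and higher in Pcf11-OE1 and Pcf11-OE2 (0.62 and 0.62). In Pcf11-AARR it was called lower with 1 fit per count table, DESeq2, a fit of only the 2 strains and relative log expression scaling (adjusted p = 0.035 to 0.0467). ARO8, an aminotransferase, rose in all 4 by 0.29 to 0.64. MCM6, on the other strand over 34.2% of ARO8 with 1.61 times its read density, changed by 0.90, 1.22, 1.41 and 1.13. The part of MCM6 in the ARO8 values was not tested. The ARO8 call in Pcf11-AARR ended with a fit of only the 2 strains (adjusted p = 0.0547). TYR1, prephenate dehydrogenase, was called lower in all 4 (-0.23, -0.33, -0.32 and -0.32), but in none with library totals alone (-0.10, 0.028, -0.032 and -0.052; edgeR adjusted p = 0.425, 0.831, 0.811 and 0.695). UBS1, on the other strand over 40.5% of TYR1, changed by 0.13, -0.23, -0.76 and -0.73. ARO7, chorismate mutase, rose in Pcf11-AARR (0.85), and PHA2, prephenate dehydratase, fell in Pcf11-OE1 and Pcf11-OE2 (-0.41 and -0.46), with 72.6% and 71.2% of their length shared with neighbours. With library totals alone the calls ended for ARO1 in the ΔPcf11-labelled libraries (-0.21, edgeR adjusted p = 0.193), ARO3 in Pcf11-AARR (-0.15, edgeR adjusted p = 0.297) and Pcf11-OE2 (-0.0052, edgeR adjusted p = 0.974) and PHA2 in Pcf11-OE1 (-0.12, edgeR adjusted p = 0.562) and Pcf11-OE2 (-0.19, edgeR adjusted p = 0.359). EHD3, on the other strand over 36.6% of ARO3, changed by -1.40, -1.44, -0.98 and -1.02. ARO7 was called higher in Pcf11-OE1 with that scaling (0.55). YMC1, on the other strand over 60.1% of ARO7, changed by 0.34, 0.70, 0.49 and 0.42. PFS2, on the other strand over 61.9% of PHA2 with 5.29 times its read density, changed by -0.39, -0.17, -0.10 and -0.04. The test was no longer passed, once 1 library was left out, by ARO1 in the ΔPcf11-labelled libraries without ΔPcf11 3, WT 1 or WT 3 (edgeR adjusted p = 0.0828 to 0.155) and ARO3 in Pcf11-OE2 without Pcf11-OE2 1, WT 1 or WT 3 (edgeR adjusted p = 0.0785 to 0.139). So it was for ARO4 in the ΔPcf11-labelled libraries without ΔPcf11 3 or WT 2 (edgeR adjusted p = 0.0616 to 0.0771) and ARO8 in Pcf11-AARR without Pcf11-AARR 1, Pcf11-AARR 3, WT 1 or WT 2 (edgeR adjusted p = 0.0505 to 0.0797). The same held for PHA2 in Pcf11-OE1 without Pcf11-OE1 1, Pcf11-OE1 3, WT 2 or WT 3 (edgeR adjusted p = 0.052 to 0.158) and PHA2 in Pcf11-OE2 without Pcf11-OE2 1 or WT 3 (edgeR adjusted p = 0.0643 to 0.108). This was also so for TYR1 in the ΔPcf11-labelled libraries without ΔPcf11 1, ΔPcf11 2, WT 2 or WT 3 (edgeR adjusted p = 0.0827 to 0.167).

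From aspartate to threonine, HOM3, aspartate kinase, rose in all 4 strains (0.92, 1.19, 1.77 and 1.42; edgeR adjusted p = 0.00176, 2.03e-04, 4.07e-06 and 3.89e-05). HOM3 stood at 1.94, 2.22 and 3.09 CPM in WT, 5.50, 3.61 and 4.69 in the ΔPcf11-labelled libraries, 5.13, 5.21 and 6.29 in Pcf11-AARR, 9.37, 8.21 and 7.31 in Pcf11-OE1 and 5.10, 7.22 and 7.25 in Pcf11-OE2. At 1.20 ± 0.296 CPM per kb in WT its level was the lowest of the 54, and JHD1, on the other strand over 31.7% of it with 15.4 times its read density, changed by -0.34, 0.13, 0.47 and 0.50. HOM2, the following dehydrogenase, fell in the ΔPcf11-labelled libraries. HOM2 stood at 52.7, 47.4 and 53.8 CPM in WT, 33.2, 37.9 and 35.0 in the ΔPcf11-labelled libraries, 51.1, 55.7 and 59.3 in Pcf11-AARR, 58.8, 51.1 and 57.4 in Pcf11-OE1 and 49.1, 33.4 and 44.3 in Pcf11-OE2. Its other strains overlapped WT, and the fall was -0.54 ± 0.13 (edgeR adjusted p = 0.00197). HOM2 was also called lower in Pcf11-OE2 with DESeq2 and relative log expression scaling (adjusted p = 0.0381 and 0.0433). With library totals alone it was called higher in Pcf11-AARR and Pcf11-OE1 (0.47 and 0.41). HOM6 rose in the ΔPcf11-labelled libraries and Pcf11-AARR (0.71 and 0.31), THR1, homoserine kinase, fell in the ΔPcf11-labelled libraries and rose in Pcf11-OE1 (-0.41 and 0.47), and THR4, threonine synthase, fell in Pcf11-AARR, Pcf11-OE1 and Pcf11-OE2 (-0.48, -0.39 and -0.43). Scaling by library totals alone ended the calls of THR1 in the ΔPcf11-labelled libraries (-0.28, edgeR adjusted p = 0.11). It also ended those of THR4 in Pcf11-AARR (-0.12, edgeR adjusted p = 0.325), Pcf11-OE1 (-0.10, edgeR adjusted p = 0.42) and Pcf11-OE2 (-0.17, edgeR adjusted p = 0.166). The same scaling called THR1 higher in Pcf11-AARR and Pcf11-OE2 (0.49 and 0.56). IML1, on the other strand over 52.1% of HOM6, changed by -0.21, -0.63, -0.55 and -0.57. CTR86, on the other strand over 35.9% of THR4, changed by 0.17, 0.06, -0.24 and -0.34. Leaving out 1 library, named by strain and replicate, ended the call of HOM6 in Pcf11-AARR without Pcf11-AARR 1, Pcf11-AARR 2, Pcf11-AARR 3, WT 1 or WT 2 (edgeR adjusted p = 0.0501 to 0.0856) and THR1 in the ΔPcf11-labelled libraries without ΔPcf11 2 or WT 3 (edgeR adjusted p = 0.0588 to 0.0618).

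Of the 3 proline genes, PRO2, gamma-glutamyl phosphate reductase, rose in all 4 strains. PRO2 stood at 19.0, 21.4 and 23.8 CPM in WT, 35.7, 33.2 and 32.6 in the ΔPcf11-labelled libraries, 38.0, 35.1 and 41.3 in Pcf11-AARR, 50.8, 47.4 and 41.5 in Pcf11-OE1 and 45.8, 49.8 and 46.3 in Pcf11-OE2. No altered library reached down to WT (0.66, 0.83, 1.12 and 1.14; edgeR adjusted p = 9.67e-05, 1.05e-05, 4.85e-07 and 4.80e-07). PRO1 and PRO3, the first and last enzymes, were not called against WT, with values from -0.48 to 0.24 and from -0.36 to 0.13. In other fits both were called lower in the ΔPcf11-labelled libraries, PRO1 with 1 fit per count table, DESeq2, a fit of only the 2 strains and relative log expression scaling (adjusted p = 0.0135 to 0.0435) and PRO3 with 1 fit per count table and a fit of only the 2 strains (adjusted p = 0.0148 to 0.0149), and PRO1 was higher in Pcf11-AARR with library totals alone (adjusted p = 0.0229). The asparagine synthetase genes parted in the ΔPcf11-labelled libraries. ASN1 stood at 504, 605 and 442 CPM in WT, 683, 1154 and 609 in the ΔPcf11-labelled libraries, 427, 362 and 263 in Pcf11-AARR, 125, 138 and 159.7 in Pcf11-OE1 and 265, 175 and 242 in Pcf11-OE2. ASN2 stood at 117, 114 and 127 CPM in WT, 76.5, 85.4 and 69.5 in the ΔPcf11-labelled libraries, 107, 84.1 and 89.2 in Pcf11-AARR, 78.8, 74.4 and 69.5 in Pcf11-OE1 and 73.0, 76.1 and 82.8 in Pcf11-OE2. ASN2 fell in all 4 strains (-0.63, -0.36, -0.69 and -0.63), but in Pcf11-AARR it stood at -8.9e-04 with library totals alone (edgeR adjusted p = 0.995). ASN1 rose in the ΔPcf11-labelled libraries (0.66 ± 0.24, edgeR adjusted p = 0.0264), where replicate 2 stood apart, and fell in Pcf11-OE1 and Pcf11-OE2 (-1.87 and -1.18; edgeR adjusted p = 1.11e-05 and 6.21e-04), while Pcf11-AARR missed the threshold (-0.56, edgeR adjusted p = 0.053) and was called lower with 1 fit per count table, DESeq2, a fit of only the 2 strains and relative log expression scaling (adjusted p = 0.00995 to 0.0499). The rise in the ΔPcf11-labelled libraries was no longer called with 1 fit per count table (adjusted p = 0.0556). YPR145C-A, on the other strand over 25.8% of ASN1, changed by 0.72, -0.76, -2.46 and -1.36. With 1 library left out, given by strain and replicate, the test was no longer passed by ASN1 in the ΔPcf11-labelled libraries without ΔPcf11 2, WT 1 or WT 3 (edgeR adjusted p = 0.0676 to 0.207) and ASN2 in Pcf11-AARR without Pcf11-AARR 2 (edgeR adjusted p = 0.0546).

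Set directly against the ΔPcf11-labelled libraries, Pcf11-AARR had 17 of the 54 genes higher and 7 lower (31.5% and 13.0%), where 18.8% of all features were higher and 21.8% lower; with library totals alone these became 27 and 4. The medians were 0.22 for the 54 and -0.03 for all features. LEU1 and LEU2 gave the largest rises (1.75 ± 0.17 and 1.45 ± 0.16; edgeR adjusted p = 5.91e-06 and 2.03e-05), and ILV3, ILV2 and ILV5 rose by 1.0, 0.61 and 0.56. BAT1 gave 0.46 ± 0.18 and missed the threshold (edgeR adjusted p = 0.0611). It passed with 1 fit per count table, DESeq2, a fit of only the 2 strains and library totals alone (adjusted p = 0.00682 to 0.0463), so 4 or all 5 of the genes with the Leu3 motif were called, depending on the fit. ARG1 and ARG4 rose by 1.02 and 1.01, and LYS4 and HOM2 by 0.71 and 0.65. The 7 lower genes were ASN1 (-1.22), LYS21 (-0.90), ARO4 (-0.61), GCN4 (-0.56), LYS12 (-0.54), HOM6 (-0.40) and THR4 (-0.28). Under library totals alone the test was missed by ARO4 in Pcf11-AARR against ΔPcf11-labelled (-0.38, edgeR adjusted p = 0.104), HOM6 in Pcf11-AARR against ΔPcf11-labelled (-0.17, edgeR adjusted p = 0.184) and THR4 in Pcf11-AARR against ΔPcf11-labelled (-0.054, edgeR adjusted p = 0.705). ARG7 was no longer called with a fit of only the 2 strains and the replicate block (adjusted p = 0.0531 to 0.0758). The test was no longer passed, once 1 library was left out, by ARG7 without ΔPcf11 1, ΔPcf11 3, Pcf11-AARR 1 or Pcf11-AARR 3 (edgeR adjusted p = 0.0691 to 0.198) and ARG8 without ΔPcf11 3 (edgeR adjusted p = 0.0706). So it was for LEU4 without ΔPcf11 2, ΔPcf11 3, Pcf11-AARR 2 or Pcf11-AARR 3 (edgeR adjusted p = 0.0696 to 0.127) and ARO7 without ΔPcf11 1, ΔPcf11 3, Pcf11-AARR 1 or Pcf11-AARR 2 (edgeR adjusted p = 0.0547 to 0.0893). The same held for ARO4 without ΔPcf11 3, Pcf11-AARR 1 or Pcf11-AARR 2 (edgeR adjusted p = 0.0615 to 0.0843) and HOM6 without ΔPcf11 2 (edgeR adjusted p = 0.0527). This was also so for THR4 without ΔPcf11 1, ΔPcf11 3, Pcf11-AARR 1 or Pcf11-AARR 2 (edgeR adjusted p = 0.055 to 0.113).

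The overexpression strains, whose PCF11 levels differed by 7.75 times, had 1 call between them among the 54 genes. Pcf11-OE2 against Pcf11-OE1 had 0 of 54 genes higher and 1 lower, beside 0.26% and 1.29% of all features, in edgeR's test; at an unadjusted p under 0.05 the counts were 1 and 9, and DESeq2 called 0 and 2. LEU1 was the 1 gene (-0.88 ± 0.16, edgeR adjusted p = 0.00754), and its Pcf11-OE2 libraries, 117 to 159 CPM, all lay below the 225 to 272 CPM of Pcf11-OE1. Without Pcf11-OE2 replicate 3 it gave -0.82 with an edgeR adjusted p of 0.0631. LEU2 gave -0.62 ± 0.16 (edgeR adjusted p = 0.0875) and was the second gene DESeq2 called (adjusted p = 0.0258). For the other 53 genes the test was not passed, which does not show that the strains act alike.

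Some of these genes carried CLIP peaks of Pcf11. RNA fragments bound to Flag-tagged Pcf11 were recovered by CLIP, a crosslinking method, in 2 immunoprecipitations (IP) and 2 inputs, and the peaks and heights are those the authors called. A peak on the sense strand was annotated to 7 of the 54 genes in both IP libraries (13.0%; 321 of 6409 named features, 5.01%) and to 21 in either (38.9%; 26.5%). Peak height, the greatest read depth in a peak without scaling, was 97 and 120 for GCN4, 70 and 96 for LEU1, 60 and 77 for ILV5, 35 and 49 for ILV2, 18 and 20 for ARO3, and 12 and 17 for TRP5, where the median sense peak had 14 and 18. GCN4 ranked 23 of 962 and 34 of 1189 sense peaks by height. The peaks annotated to LYS21, of height 77 and 100, lay for 89.2% and 89.6% of their length over STF1, the next gene on the same strand, with their summits there, and for 18.5% and 18.1% inside LYS21, so 6 genes are left without it. Those of GCN4 lay for 61.2% and 62.6% inside the gene and for 0% over another feature on the same strand. The rest lay before the start of GCN4 at base 139763, reaching bases 140360 and 140343. Those of LEU1 and ILV5 lay for 92.6% to 97.6% inside. In the inputs, where reads were counted without enrichment, GCN4 had 556 and 562 FPKM (reads scaled for gene length and library size), LEU1 502 and 516, ILV5 332 and 355, ILV2 252 and 247, LYS21 58.7 and 55.2, ARO3 77.8 and 82.4 and TRP5 62.7 and 59.9. LEU4, with 434 and 439 FPKM in the inputs, had a peak in 1 IP library (height 72). LYS20, also among the 21, had its sense peak (height 63) for 82.0% over INH1, with the summit there, and for 24.9% inside LYS20. PRO3 had a peak of height 89 for 65.4% over YAT2, with the summit there, and for 5.62% inside PRO3. Another PRO3 peak, of height 9, lay inside the gene. The part of transcript level in these peaks was not tested. Of the 5 genes with the Leu3 motif, LEU1, ILV2 and ILV5 had a peak in both IP libraries, and LEU2 and BAT1 in neither.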

How the data were processed

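RNA-seq was deposited by the authors as raw counts per gene for 15 libraries in 2 tables whose WT columns hold the same values, and these were joined on the gene identifier. Per the submitters' processing notes, reads were trimmed with fastp 0.23.0, while for the aligner and the counter nothing is given in the sources used here. CLIP inputs were deposited as read counts and as FPKM, of which FPKM is given here. CLIP peaks came with the authors' own peak height, a signal without scaling. Genes were tested with edgeR 4.0.16 (R 4.3.3) in 1 quasi-likelihood fit over all 15 libraries with TMM scaling, after filterByExpr kept 6147 of 6409 named features. P-values measure the spread between these biological replicates. Alternatives were DESeq2 1.42.0, other scalings, no filter, fits per table or per pair of strains, a replicate block and leaving out each library.

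The members, gene lists and motifs were chosen with earlier results of these data known. Values per library are given for GCN4, the 4 marker genes, 5 paralog pairs and the called genes with the most extreme fold changes of each pathway, and up to 3 genes of each further list are named. Other genes are named by their calls, and the ILV2 and ILV5 values per library and the choice of sites shown were added after the values were seen. Replicate numbers were checked for pairing: 6 of 30 same-numbered pairs correlated above 0.1 (range -0.508 to 0.393), but all 3 did between WT and Pcf11-AARR (0.147, 0.173 and 0.230), so the blocked value is given there where it changes a call. The labels do not say what a number marks. Promoter windows were the 500 bases before each start codon in assembly R64, whose sequence names match the files.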

Additional observations from a re-analysis of the deposited data

How the results depend on the processing

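Of 4212 values recomputed for the 54 genes over 15 settings without 1 library and 7 others, 3965 kept direction and side of the threshold, 133 lost the call, 112 gained one and 2 reversed. With library totals alone, LYS1 and TYR1 in Pcf11-AARR against WT turned to 0.036 (edgeR adjusted p = 0.801) and 0.028 (edgeR adjusted p = 0.831), and the members called were 32 higher and 6 lower in Pcf11-AARR against WT and 27 and 4 against the ΔPcf11-labelled libraries. The cause was not tested. Between the overexpression strains DESeq2 called 2 lower, and members overlapped by at most 20% gave 3.23% lower in place of 1.85%. Peaks in either IP library were annotated to 21 members in place of 7. Without 1 library, higher and lower counts ranged from 13 to 15 and 13 to 18 (ΔPcf11-labelled), 18 to 20 and 13 to 16 (Pcf11-AARR), 24 to 25 and 15 to 16 (Pcf11-OE1), 16 to 21 and 15 to 18 (Pcf11-OE2), 13 to 17 and 5 to 7 (Pcf11-AARR against ΔPcf11-labelled) and 0 to 0 and 0 to 1 (Pcf11-OE2 against Pcf11-OE1, 0 without Pcf11-OE2 replicate 3). The replicate block changed 6 of 324 calls. It ended those of ARG7 in Pcf11-AARR against ΔPcf11-labelled (edgeR adjusted p = 0.0531), HIS7 in Pcf11-OE1 (0.0641) and LYS2 and TYR1 in the ΔPcf11-labelled libraries (0.0534 and 0.0543), and added THR1 in Pcf11-OE2 (0.0385) and TRP5 in Pcf11-AARR (0.0261). Of 15 libraries, 6 correlated best with their own number.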
